A study of Mus musculus with 12 samples.

Results

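Layer I neurons were described in single-cell RNA sequencing of prefrontal cortex from mice of 3 Myt1l genotypes at birth (postnatal day 0). They were the cells that the deposited cell table names LayerI [19-P], 422 of 36263 cells in all. Homozygous mutants (HOM) gave 237 of them, heterozygous mutants (HET) 114 and wild-type animals (WT) 71. The cell table names 13688 cells HOM, 12072 HET and 10503 WT. The study's figure legends give the same totals to other genotypes, with 10503 homozygous, 13688 heterozygous and 12072 wild-type cells. This conflict could not be settled here, and the genotype names of the cell table are used throughout. The mutant allele, made by CRISPR/Cas9 in zygotes and present in every cell of the animal, lacks 7 bp of exon 6 and runs into a stop codon at residue 78 of MYT1L, a zinc finger transcription factor of neurons. The labels give the strain as C57BL/6J, whereas the study's methods describe C57BL/6N for the zygotes and the mice bred to the founders. Cells of 2 animals per genotype were fixed, pooled and captured in 1 droplet library, and the 12 deposited samples are 4 sequencing runs of each library. The animal that a cell came from was not in the tables analysed here, so no value could be set against the variation between animals, and every comparison below is a comparison of 3 libraries without a test.

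Layer I is the outermost layer of the cortex. At birth it holds Cajal-Retzius cells, transient neurons that are among the earliest in the cortex. They enter layer I from the cortical hem, the septum and other borders of the cortex and disappear after birth by cell death. They secrete reelin, an extracellular protein that binds the receptors VLDLR and LRP8 on migrating neurons. This leads to phosphorylation of the adaptor DAB1, and mice without reelin have disordered cortical layers. Reln encodes reelin. Trp73 encodes the p53 relative p73, Lhx5 a LIM homeodomain factor and Ebf3 a factor of the EBF family, all found in Cajal-Retzius cells. Ndnf encodes a secreted neurotrophic factor and also marks a class of layer I interneurons later in life. These 5 genes were used to check the name.

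The markers lie on different chromosomes or far apart in mm10 (GENCODE M21). Reln is at chr5:21884454-22344702, Trp73 at chr4:154056253-154140208, Lhx5 at chr5:120431699-120441223, Ebf3 at chr7:137193673-137314445 and Ndnf at chr6:65671590-65712326. Nhlh2, a basic helix-loop-helix factor that led the same cells, is at chr3:102010076-102015492. RefSeq promoter windows of GRCm38.p6, which run from 250 bases before to 50 bases after an annotated start, were matched by symbol for 13 of 17 layer I and other Cajal-Retzius genes and for 3 of the 5 markers. The windows of Reln (chr5:22344656-22344955, minus strand), the upstream start of Trp73 (chr4:154139826-154140125, minus strand) and Nhlh2 (chr3:102009895-102010194, plus strand) are shown because these genes set the best marked cells apart. Capitals mark CAGCTG, a sequence of the E-box class that helix-loop-helix factors bind, which reads the same on both strands.
Reln: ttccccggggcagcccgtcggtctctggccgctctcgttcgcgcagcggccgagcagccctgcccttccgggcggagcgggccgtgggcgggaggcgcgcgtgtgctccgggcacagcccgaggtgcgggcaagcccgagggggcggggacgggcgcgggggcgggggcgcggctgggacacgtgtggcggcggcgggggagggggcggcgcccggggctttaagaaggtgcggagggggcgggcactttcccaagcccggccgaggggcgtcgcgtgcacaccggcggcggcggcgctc
Trp73: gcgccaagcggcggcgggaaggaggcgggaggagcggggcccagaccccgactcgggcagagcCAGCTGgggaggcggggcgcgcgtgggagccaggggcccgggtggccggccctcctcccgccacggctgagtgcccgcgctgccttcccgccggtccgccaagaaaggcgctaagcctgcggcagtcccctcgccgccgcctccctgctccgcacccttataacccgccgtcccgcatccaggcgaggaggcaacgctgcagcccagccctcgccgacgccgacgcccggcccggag
Nhlh2: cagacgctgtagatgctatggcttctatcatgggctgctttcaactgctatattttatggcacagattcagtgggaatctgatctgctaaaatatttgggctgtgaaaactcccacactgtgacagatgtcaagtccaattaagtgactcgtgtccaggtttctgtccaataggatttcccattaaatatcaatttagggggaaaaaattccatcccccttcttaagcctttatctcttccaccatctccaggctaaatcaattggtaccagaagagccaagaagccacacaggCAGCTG
CAGCTG was present once in the Trp73 window and once in the Nhlh2 window, and not in that of Reln. It occurred in 2 of the 15 windows matched and in 16.3% of all 32851 windows of this length. AAAGTT, the core of the MYT1L motif, was searched on both strands and was in none of the 3 windows shown. It was in 2 of the 15 windows, those of Barhl2 and Zic1, against 14.1% of all windows. TAATTA, a homeodomain core, was in the windows of Emx2 and Tbr1, against 5.29% of all windows. GC content was 80.7% in the Reln window, 77.7% in the Trp73 window and 43.3% in the Nhlh2 window.

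The 422 cells were shallow. Median depth was 769 molecules per cell in HOM, 809.5 in HET and 704 in WT, against 1361, 1101 and 1049 in all other cells of the HOM, HET and WT libraries, and 68.5% of the layer I cells had fewer than 1000 molecules. Xist was found in 0.00743% of other HOM cells, 0.0167% of other HET cells and 20.3% of other WT cells. Y-linked transcripts were found in 15.4% of other HOM cells, 15.5% of other HET cells and 5.73% of other WT cells. The WT library thus differed in sex from the mutant libraries, and sex and genotype cannot be told apart in comparisons with WT. The HOM and HET libraries were alike in these values. Among layer I cells Xist was found in 0 HOM, 0 HET and 2 WT cells. A cell barcode of another library recurred in 15 of the 422 cells, and none was shared between layer I cells. Levels are given as CPM, here the share of a gene in the summed depth-corrected values of a group of cells, per 1000000. Shares of cells carry exact Clopper-Pearson 95% intervals, and these cover counting error only.

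Only some of the cells carried the markers of their name. Reln was above 0 in 39.1% of the 422 cells (34.4 to 43.9%) and Ndnf in 30.1% (25.8 to 34.7%), whereas Trp73 was found in 62 cells, Lhx5 in 49 and Ebf3 in 42. None of the 5 markers was found in 218 cells (51.7%), and 133 cells (31.5%; 27.1 to 36.2%) had at least 2. The authors' Leiden clusters divided the cells. Cluster 21 held 126 of them, 65 HOM, 36 HET and 25 WT, and no cell of another name. The remaining 296 cells lay in clusters shared with many types, with 164 in cluster 1, 88 in cluster 5 and 44 elsewhere. The marker genes entered the clustering and the naming, so the values of the clusters are a description.

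**Figure D1:**
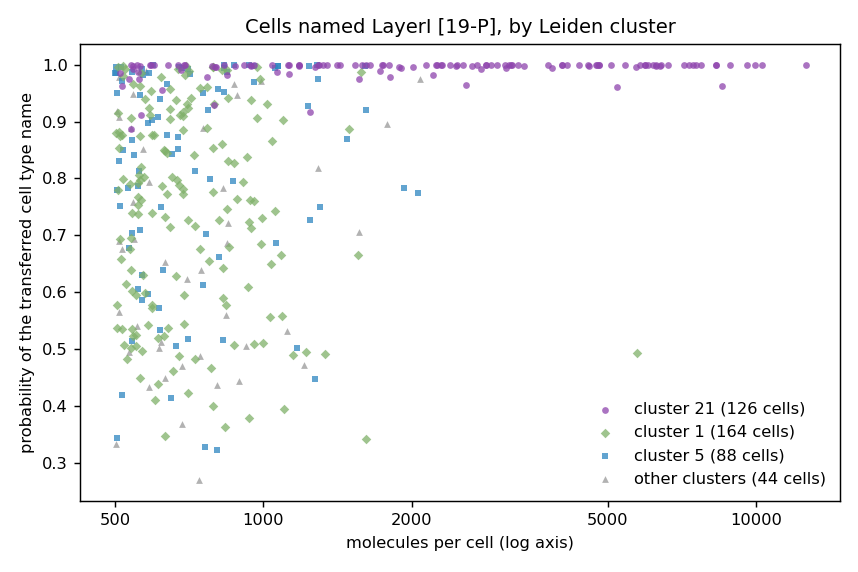
Each point is 1 of the 422 cells named LayerI [19-P]; the x axis gives its molecules (log axis) and the y axis the probability of the transferred name, with the Leiden cluster by colour and shape. Cluster 21 cells sit near a probability of 1 (median 0.99953) at all depths, while those of clusters 1 and 5 lie mostly below 1000 molecules and range widely (medians 0.766 and 0.868).

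In cluster 21, 111 of 126 cells (88.1%; 81.1 to 93.2%) had at least 2 of the 5 markers and 5 had none. Outside it, 22 of 296 cells (7.43%; 4.72 to 11.0%) had at least 2 and 213 had none. Cluster 21 cells were deeper, with a median of 2173.5 molecules against 670 outside. Among cells with fewer than 1000 molecules, 27 of 33 cluster 21 cells (81.8%; 64.5 to 93.0%) had at least 2 markers, against 14 of 256 cells outside (5.47%; 3.02 to 9.01%). The gap between the sets was thus also present at low depth. Median name probability was 0.99953 in cluster 21 and 0.783 outside, and median mitochondrial content was 4.33% and 6.74%. In all other cells, at least 2 markers were found in 91 of 35841 (0.254%; 0.204 to 0.312%).

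Reln reached 7401 CPM in cluster 21 and 463 CPM in the layer I cells outside it, against 52.3 CPM in all other cells. Among cells with fewer than 1000 molecules Reln stood at 11189.9 CPM in cluster 21 and 489 CPM outside. Ndnf stood at 2526 CPM in cluster 21 and 213 CPM outside, against 10.0 CPM in all other cells. Trp73 had 424 CPM in cluster 21, 30 CPM outside and 0.853 CPM in other cells. Lhx5 had 297, 23.3 and 0.806 CPM in the same order, and Ebf3 260, 33.3 and 0.735 CPM. Every marker was therefore lower outside cluster 21 than in it, and still higher there than in cells of other names. Because the 296 cells outside cluster 21 mostly lacked the markers, they are called here by their deposited name only, and the label Cajal-Retzius-like is used for cluster 21 alone.

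Of the cells of the other 20 names, those of Int2 [14-P] came next to layer I cells in Reln, with 183 CPM and a value in 9.51% of cells, followed by Int3 [11-P] with 160 CPM and 12.5%. Microglia, which are not known to make reelin, had Reln in 3.67% and Ndnf in 1.15% of cells at a median of 787 molecules. Endothelial1 [17-P] cells had Reln in 3.18% and Ndnf in 1.88% at 1458 molecules. The 20.6% of layer I cells outside cluster 21 with Reln lay above these levels, at a median of 670 molecules. Trp73 and Lhx5 were at 0 in microglia and Endothelial1 cells, and Ebf3 was found in 2 cells of each, at 2.12 and 2.31 CPM, the highest levels of Ebf3 after layer I cells. The 91 cells of other names with at least 2 markers were mostly Int2 [14-P] (17), Astrocytes (immature) 2 [13-P] (15), Int1 [5-P] (10) and LayerV-VI [18-P] (10).

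**Figure D2:**
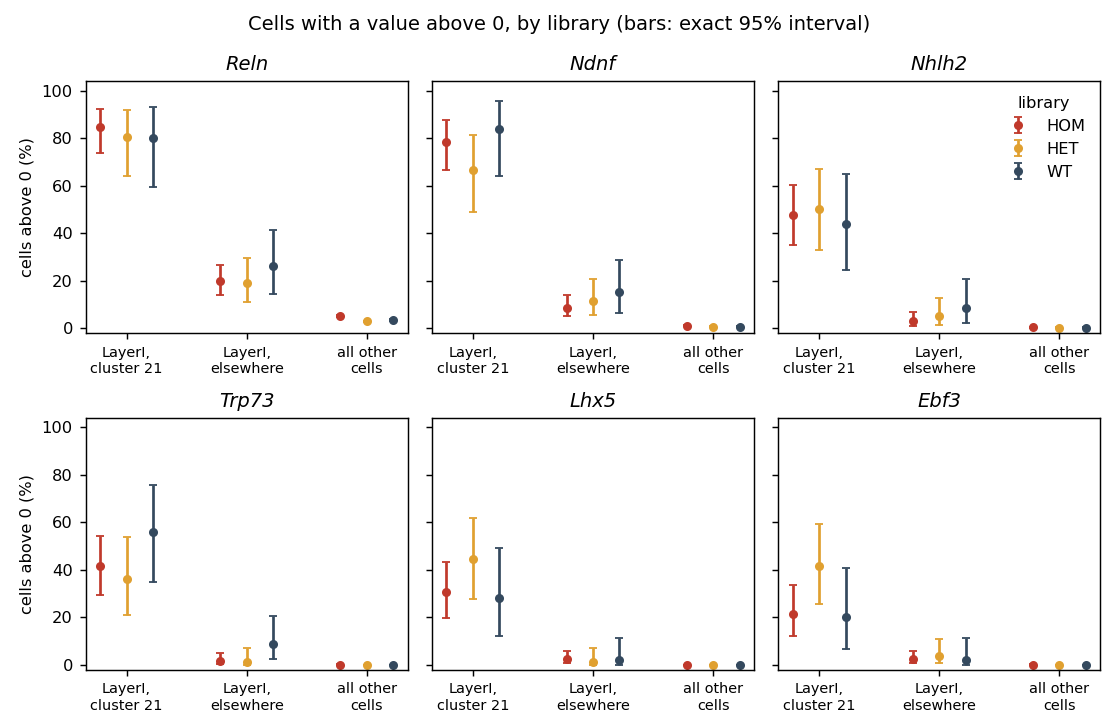
Percent of cells with a value above 0 (y axis) for 6 genes in the layer I cells of cluster 21, the layer I cells elsewhere and all other cells, with 1 point per library (HOM, HET, WT) and bars for the exact 95% interval. Reln lies between 80.0 and 84.6% in cluster 21 of the 3 libraries, and every gene is far lower in the other sets of cells.

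Within cluster 21 the markers were found in all 3 libraries, and the intervals of the libraries overlapped for each. Reln was above 0 in 84.6% of HOM, 80.6% of HET and 80.0% of WT cells. Ndnf was above 0 in 78.5% of HOM, 66.7% of HET and 84.0% of WT cells. Trp73 was found in 41.5% of HOM, 36.1% of HET and 56.0% of WT cells, Lhx5 in 30.8%, 44.4% and 28%, and Ebf3 in 21.5%, 41.7% and 20.0%. The level of Reln was 8132 CPM in HOM, 5869 CPM in HET and 7638 CPM in WT cells of cluster 21. A single cell could weigh heavily in such sums, since the 5 cells highest in Reln held 41.2% of its sum in HOM, 64.2% in HET and 65.6% in WT.

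The 12 other Cajal-Retzius genes were read next, in cluster 21. Nhlh2 was above 0 in 47.7% of HOM, 50% of HET and 44.0% of WT cells. Calb2, encoding the calcium-binding protein calretinin, was found in 41.5%, 36.1% and 48.0% of HOM, HET and WT cells. Tbr1, a T-box factor of early-born glutamatergic neurons, was found in 33.8%, 38.9% and 24%, and Emx2, a homeobox factor of the medial cortex, in 32.3%, 38.9% and 28%. Cacna2d2, a calcium channel subunit, was found in 26.2%, 16.7% and 16.0%, and the LIM homeodomain factor Lhx1 in 13.8%, 16.7% and 24%. These genes were shared by the libraries, with overlapping intervals.

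Other members were sparse. Cxcr4, the receptor of the chemokine CXCL12, was found in 4.62% of HOM, 11.1% of HET and 24% of WT cells of cluster 21. Cxcl12 itself, a chemokine of the meninges that keeps Cajal-Retzius cells near the surface, was found in 64.6%, 41.7% and 72.0% of these cells, with 1550 CPM in cluster 21 and 100 CPM outside against 40.2 CPM in other cells. Ebf1, Ebf2, Barhl2 and Zic1 were each found in at most 10 cluster 21 cells. Eomes, a T-box gene of intermediate progenitors that some Cajal-Retzius cells also express, was at 0 in all 126 cells, which allows a share of cells with a value of up to 2.38% (3 counts of 126), and was found in 1 HET cell outside. Slc17a6, which encodes the vesicular glutamate transporter VGLUT2, had 218 CPM in cluster 21, 46.7 CPM outside and 52.3 CPM in other cells.

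The 25 genes that led cluster 21 over all other cells began with Trp73, Lhx5 and Ebf3, at log2 ratios of 8.96, 8.52 and 8.47. Then came the unnamed gene model Gm49027 at 8.06, Ndnf at 7.97, Gdf5, a growth factor of the BMP family, at 7.96, Nhlh2 at 7.66, Fibin at 7.64 and Reln at 7.15. Ndst4, an enzyme of heparan sulphate synthesis, followed at 6.76 and Ache, the acetylcholinesterase that ends cholinergic signalling, at 5.88. Tmem163, a zinc transporter, stood at 5.80, the long RNA host gene Snhg11 at 5.45, Cxcl12 at 5.27, Rgs4, a regulator of G protein signalling, at 4.87 and the nuclear receptor Nr2f2 at 4.57. Gdf5 was found in 30 of the 126 cells, Fibin in 33 and Ache in 35. These genes were picked by their ratio and are named as a description.

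**Figure D3:**
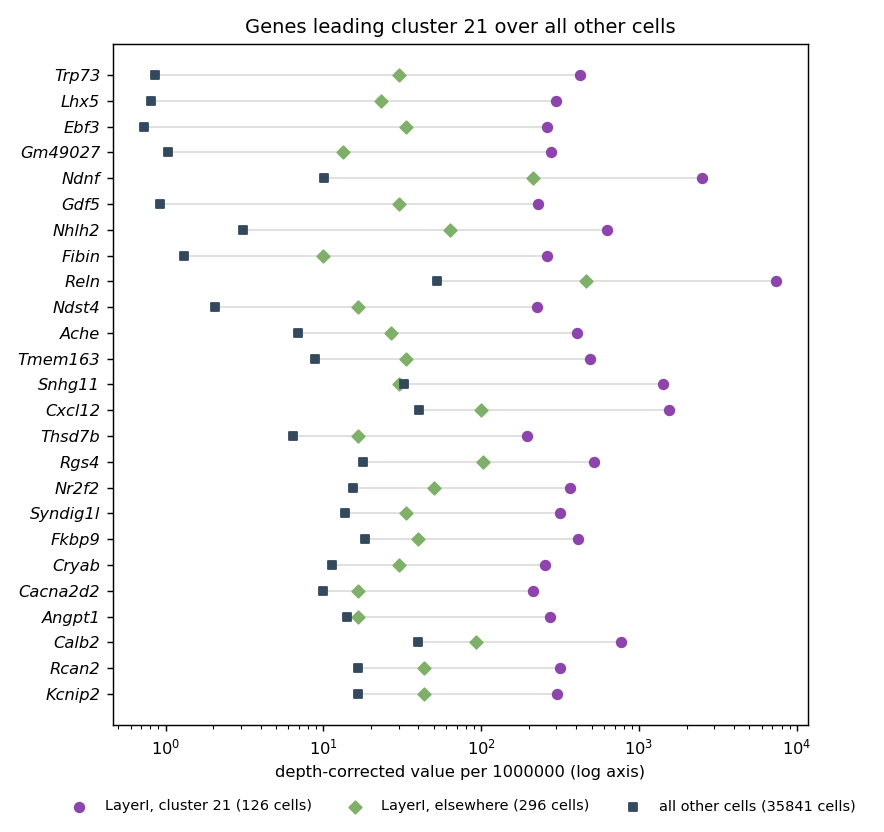
Level of the 25 genes that led cluster 21 over all other cells (x axis, depth-corrected value per 1000000, log axis) in the layer I cells of cluster 21, the layer I cells elsewhere and all other cells. Trp73 stands at 424, 30 and 0.853 in the 3 sets, and most genes have an intermediate level in the layer I cells elsewhere, except Snhg11 with 30 against 32.6 in other cells.

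Genes of the cortical plate and of glia were low or at 0 in cluster 21. The splicing regulator Rbfox1 (207 CPM in other cells), the host gene Mir99ahg (207 CPM), Rlbp1 (127 CPM) and the collagen gene Col4a1 (109 CPM) were at 0 there. Slc1a3, the glutamate transporter GLAST of radial glia, had 6.06 CPM in cluster 21 and 317 CPM in other cells. Neurod2 and Neurod6, basic helix-loop-helix factors of cortical projection neurons, had 42.4 and 60.6 CPM in cluster 21, against 459 and 390 CPM in other cells. Dab1, the intracellular part of the reelin response, had 36.3 CPM in cluster 21 and 66.7 CPM in the layer I cells outside, against 248 CPM in other cells. The receptor gene Lrp8 had 48.5 CPM in cluster 21 and 109 CPM in other cells, and Vldlr 18.2 and 50 CPM. In the summed values of cluster 21 the ligand was therefore high and its receptors and adaptor were low. These levels rest on small sums, 6 for Dab1, and were not read cell by cell.

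Over all 422 cells the 15 leading genes were a mixture. Ndnf led with a log2 ratio of 6.69 over other cells, followed by Reln with 5.81, Snhg11 with 4.01 and Cxcl12 with 3.93. Cd200, a membrane glycoprotein of neurons, stood at 1.97. The rest lay between 0.84 and 1.31 and were widely used neuronal or metabolic genes: Prnp, Gap43, Aldoa, Ina, Tubb4b, Pcsk1n, Atox1, Olfm1, Ndufs5 and Uchl1. Across 6966 genes, the profile of cluster 21 was closest to Int2 [14-P] among the other names (Spearman's rho 0.787), and the profile of the layer I cells outside cluster 21 was closest to the cells of other names in their own cluster 1 (rho 0.881). Genes are not independent replicates, and the profiles share the libraries.

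Cluster 21 was not uniform. The factors Trp73, Lhx5 and Ebf3 were found together more often than the product of their shares gives: Lhx5 and Ebf3 in 22 cells against 11.6, Trp73 and Ebf3 in 23 against 14.6 and Trp73 and Lhx5 in 25 against 18.4. Reln and Ndnf were found together in 89 cells against 79.2. Between both groups of genes, Ndnf was found with Lhx5 in 25 cells against 32.8 and with Ebf3 in 18 against 25.9, but with Trp73 in 41 against 41.1. Reln was found with Trp73 in 46 cells against 44.6, with Lhx5 in 33 against 35.5 and with Ebf3 in 26 against 28.1. Depth moved with these values, since cells with Lhx5 had a median of 4723 molecules against 1296 without it, and its part was not tested.

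At least 1 of Trp73, Lhx5 and Ebf3 was found in 76 cluster 21 cells and none in 50. Reln was at 4102 CPM in the 76 cells and 13521 CPM in the 50, and Nhlh2 was above 0 in 60.5% and 28%. Median depth was 3169 and 910 molecules. Among cells with at least 2000 molecules, 54 had one of the factors and 11 had none, at medians of 4798 and 2649 molecules. Reln stood at 4907 CPM in the 54 and 13413 CPM in the 11, and Calb2 was above 0 in 40.7% (27.6 to 55.0%) and 81.8% (48.2 to 97.7%). The higher summed Reln level of cells without the factors was also seen in deeper cells, in only 11 of them. Reln was above 0 in a similar share of both sets, 81.6% of the 76 cells and 84% of the 50. In the deeper cells it was above 0 in 85.2% of the 54 and 81.8% of the 11. The 5 cells highest in Reln held 26.8% of its sum in cluster 21. The part of depth and of such cells was not tested. These sets were chosen after the values were seen.

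Markers of other cell types were read as summed levels over whole lists. The 17 radial glia and astrocyte genes summed to 2659 CPM in cluster 21 (14 of 17 above 0) and 6551 CPM in the layer I cells outside (15 of 17), against 10228 CPM in other cells. The 19 layer II-VI neuron genes summed to 902 CPM in cluster 21 and 1864 CPM outside, against 3927 CPM in other cells. The 23 GABAergic interneuron genes gave 412 and 780 CPM, against 1772 CPM, and the 12 microglia genes 121 and 293 CPM, against 480 CPM. The 4 red blood cell genes gave 866 CPM in cluster 21 and 2824 CPM outside, against 1287 CPM in other cells, although the authors had removed blood cells. The layer I cells outside cluster 21 thus lay between cluster 21 and the other cells for 4 of these 5 lists and above both for haemoglobins.

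Layer I cells made up a larger share of the HOM library. They were 1.73% of HOM cells (1.52 to 1.96%), 0.944% of HET cells (0.780 to 1.13%) and 0.676% of WT cells (0.528 to 0.852%). The ratio of shares was 2.56 for HOM over WT (95% interval 1.96 to 3.39), 1.40 for HET over WT (1.03 to 1.91) and 1.83 for HOM over HET (1.46 to 2.31). The intervals come from counting error alone, while each library pooled 2 animals whose spread is unknown. In cells of at least 1000 molecules the HOM over WT ratio was 2.54 (1.51 to 4.46), and the HET over WT ratio was 1.95 (1.12 to 3.54).

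Over cells of all depths, the same order of shares was seen within and outside cluster 21. Cluster 21 was 0.475% of HOM cells (0.367 to 0.605%), 0.298% of HET cells (0.209 to 0.413%) and 0.238% of WT cells (0.154 to 0.351%). Its ratio of shares was 2.00 for HOM over WT (1.24 to 3.30), 1.25 for HET over WT (0.732 to 2.18) and 1.59 for HOM over HET (1.04 to 2.46). The layer I cells outside it were 1.26% of HOM, 0.646% of HET and 0.438% of WT cells, with ratios of 2.87 for HOM over WT and 1.48 for HET over WT. The order of HET changed with depth: in cells of at least 1000 molecules the layer I cells outside cluster 21 were 0.253% in HOM, 0.263% in HET and 0.0550% in WT, and in cells with fewer than 1000 molecules cluster 21 was 0.260% in HOM, 0.161% in HET and 0.178% in WT. HOM lay above WT in each of these sets. Cluster 21 was 27.4% of the layer I cells in HOM (21.8 to 33.6%), 31.6% in HET (23.2 to 40.9%) and 35.2% in WT (24.2 to 47.5%), and these intervals overlapped. Cells of any name with at least 2 markers were 0.862% of HOM, 0.505% of HET and 0.428% of WT cells, with a HOM over WT ratio of 2.01 (1.42 to 2.90). The splits by cluster and by markers were chosen after the values were seen.

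**Figure D4:**
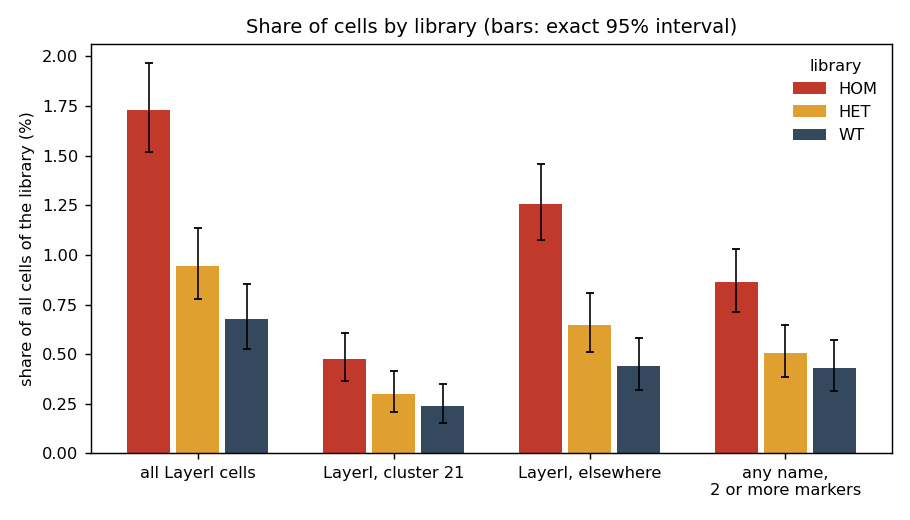
Share of all cells of a library (y axis, percent) in HOM, HET and WT for all layer I cells, those of cluster 21, those elsewhere and cells of any name with at least 2 of the 5 markers; bars show the exact 95% interval. In all 4 sets the HOM bar is highest, with 1.73% for all layer I cells and 0.475% for cluster 21, and the HET and WT intervals overlap.

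Myt1l (chr12:29528384-29923213) was read first among the genes compared between genotypes. The study reports no nonsense-mediated decay of the Myt1l transcript in RNA-Seq of its mutant mice, so the RNA level of Myt1l is no check of the genotype. Myt1l stood at 516 CPM in HOM, 394 CPM in HET and 140 CPM in WT layer I cells and was above 0 in 78, 36 and 8 cells. In cluster 21 it stood at 534 CPM in HOM, 368 CPM in HET and 122 CPM in WT, with a value in 49.2%, 38.9% and 12% of cells. In all other cells it stood at 713 CPM in HOM, 450 CPM in HET and 372 CPM in WT. The log2 ratio of HOM over WT was 1.88 in layer I cells and 0.94 in all other cells, and the WT values of layer I cells rest on a sum of 11.

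For HOM against WT, 1103 genes with a summed value of at least 50 were compared. Of them 56 were at least 2-fold higher and 19 at least 2-fold lower in HOM (6.8% of genes tested; 5.08% higher and 1.72% lower), and the median log2 ratio of all genes was 0.13. With median-of-ratios scaling, which sets that median to 0, the split was 38 higher and 34 lower. Snhg11 (469.8 CPM in HOM, 128 CPM in WT) and Myt1l led, each with a log2 ratio of 1.88, or 1.75 above the median. Snhg11 rested on few cells, since 5 cells held 78.7% of its sum in HOM and all of it in WT. Evl, an actin regulator of the Ena/VASP family, stood at 431 CPM in HOM and 166 CPM in WT (log2 ratio 1.38). Fth1, the ferritin heavy chain, stood at 2854 CPM in HOM and 1301 CPM in WT (1.13) and was above 0 in 84.0% of HOM and 52.1% of WT cells. Serf2 (1.36), the respiratory chain genes Ndufs5 (1.35), Ndufv3 (1.16) and Atp5e (1.12), the proteasome subunit gene Psmb5 (1.34) and the splicing gene Snrpd2 (1.10) completed the highest 10.

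All 10 of these genes were also higher in HOM among all other cells, by smaller log2 ratios between 0.22 and 0.94. Within cluster 21, 5 of them had a summed value of at least 50, and their log2 ratios were 2.16 for Snhg11, 2.13 for Myt1l, 0.54 for Ndufs5, 0.89 for Fth1 and 0.64 for Atp5e. The 2 largest rest on few WT cells, since Myt1l had a value in 3 and Snhg11 in 5 of the 25 WT cells of cluster 21. In HOM, 5 cells held 81.4% of the Snhg11 sum of cluster 21. Cluster 21 had 27 of 370 genes past the 2-fold change (7.3%), with 25 higher (6.76%) and 2 lower (0.541%) in HOM.

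The lowest gene in HOM was Tcf4, a basic helix-loop-helix factor, with 250.3 CPM in HOM and 536 CPM in WT (log2 ratio -1.10). Its sign turned in cluster 21, where it stood below the summed value of 50, with 13 in HOM and 3 in WT. Kif1a, a motor of synaptic vesicle precursors, had 412 CPM in HOM and 804 CPM in WT (-0.96), and its ratio in cluster 21 was -0.93. Ank3, which encodes ankyrin-G of the axon initial segment, had 281 CPM in HOM and 523 CPM in WT (-0.90), with -0.50 in cluster 21. Cnbp, Tulp4, Hnrnpdl, Csnk1a1, Bzw1, Ttc3 and Basp1 lay between -0.85 and -0.65. In all other cells 8 of the 10 were also lower in HOM, and Cnbp and Hnrnpdl were not.

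**Figure D5:**
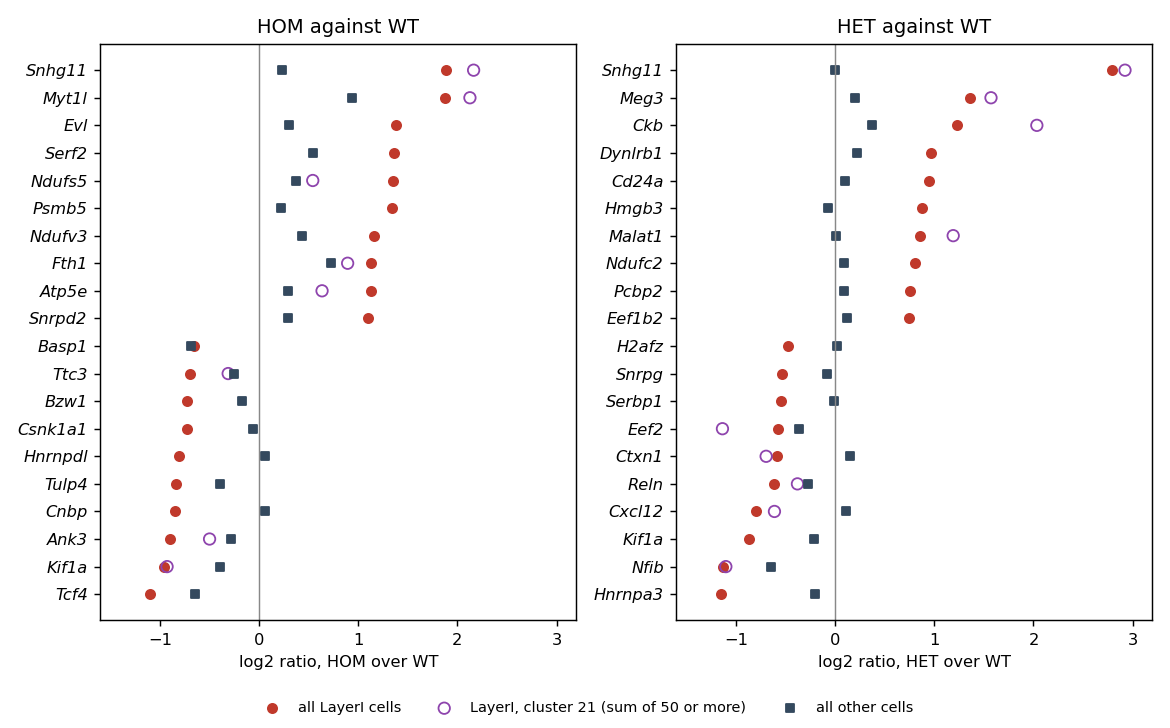
Log2 ratio (x axis) of the 10 highest and 10 lowest genes in HOM over WT (left) and HET over WT (right), in all layer I cells, in those of cluster 21 where the summed value was at least 50, and in all other cells. Snhg11 stands at 1.88 and 2.79 in all layer I cells and near 0 in all other cells (0.23 and -0.00), whereas Myt1l stands at 0.94 in all other HOM cells.

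For HET against WT, 642 genes were compared, and 20 were at least 2-fold higher and 10 at least 2-fold lower in HET (4.67% of genes tested; 3.12% higher and 1.56% lower). Snhg11 stood at 882 CPM in HET and 128 CPM in WT (log2 ratio 2.79), and 5 cells held 85.7% of its sum in HET. The long non-coding RNA Meg3 had 1181 CPM in HET and 459 CPM in WT (1.36), and Malat1 8857 and 4885 CPM (0.86). Ckb, the brain creatine kinase, had 1110 CPM in HET and 472 CPM in WT (1.23), and its ratio was 2.03 in cluster 21. Dynlrb1, Cd24a, Hmgb3, Ndufc2, Pcbp2 and Eef1b2 lay between 0.74 and 0.97. In cluster 21, 14 of 210 genes were past the 2-fold change (6.67%), with 10 higher (4.76%) and 4 lower (1.9%) in HET.

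On the lower side, Hnrnpa3 had 339 CPM in HET and 753 CPM in WT (-1.15), and Nfib, a nuclear factor I gene, 339 and 739.8 CPM (-1.13, and -1.10 in cluster 21). Cxcl12 had 417 CPM in HET and 727 CPM in WT (-0.80), with -0.61 in cluster 21 and 0.11 in all other cells. Reln had 2425 CPM in HET and 3712 CPM in WT (-0.61), with -0.38 in cluster 21 and -0.27 in other cells. Kif1a was lower here too (-0.87), and Ctxn1, Eef2, Serbp1, Snrpg and H2afz lay between -0.59 and -0.47. Both comparisons use the same WT library of 71 layer I cells.

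For HOM against HET, 1268 genes were compared, with 22 at least 2-fold higher and 14 at least 2-fold lower in HOM (2.84% of genes tested; 1.74% higher and 1.1% lower). Snrpd2 (493 CPM in HOM, 244 CPM in HET; log2 ratio 1.01) and Snrpf (0.95), both encoding core proteins of the spliceosome, were highest. The respiratory chain genes Uqcr10 (0.92), Ndufb4 (0.86) and Ndufb11 (0.83) were also among the highest 10, with Sem1, 2410006H16Rik, Ubl5, Prelid1 and Gng5. Eloc (200.3 CPM in HOM, 417 CPM in HET; -1.06) and Rufy3 (-1.06), a neuronal polarity gene, were lowest, followed by Snhg11 (-0.91), Celf4 (-0.90), Serinc1, Csnk1a1, Hspd1, Pdap1, Meg3 (-0.77) and Cyc1. In cluster 21, 11 of 413 genes were past the 2-fold change (2.66%), with 6 higher (1.45%) and 5 lower (1.21%) in HOM.

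Layer I genes were read as lists, and for HOM against WT 3 of the 5 markers and 4 of the 12 other Cajal-Retzius genes reached the minimum sum. None of these 7 was past the 2-fold change, against 6.8% of all genes, and nothing is read from a count of 0 among so few. Lhx5 (sums of 31 in HOM and 8 in WT) and Ebf3 (21 and 7) were not compared. Reln had 2935 CPM in HOM, 2425 CPM in HET and 3712 CPM in WT over all layer I cells, Ndnf 1013, 1008 and 1148 CPM, and Trp73 162, 110 and 293 CPM in the same order. The log2 ratios of HOM over WT were -0.34 for Reln, -0.18 for Ndnf and -0.86 for Trp73, and in cluster 21 they were 0.09, 0.31 and -0.28. The 4 of 12 other Cajal-Retzius genes that could be compared were Tbr1 (-0.61), Calb2 (-0.52), Nhlh2 (-0.45) and Emx2 (-0.37), with a median of -0.49 against 0.13 over all genes. In cluster 21 Nhlh2 stood at -0.01 and Calb2 at -0.13. Within cluster 21 these ratios lay nearer to 0 or above it. Cluster 21 made up 27.4% of layer I cells in HOM and 35.2% in WT, and its part in the ratios over all layer I cells was not tested. For HET against WT, Calb2 was 2-fold lower (205 CPM in HET, 497 CPM in WT; -1.28), with -0.76 in cluster 21.

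Genes of radial glia and astrocytes lay mostly above the median of all genes for HOM against WT. Of 17 members 9 could be compared for HOM against WT, and all 9 lay above 0 and 8 above the median of all genes. Their median log2 ratio was 0.70 against 0.13 over all genes, and 2 were past the 2-fold change, against 6.8% of all genes. Vim, an intermediate filament, had 304 CPM in HOM and 128 CPM in WT (1.25), Ptprz1, a receptor phosphatase, 219.5 and 102 CPM (1.11) and Fabp7, the brain fatty acid binding protein, 2276 and 1173 CPM (0.96). The summed level of the list was 5885 CPM in HOM, 4369 CPM in HET and 4094 CPM in WT layer I cells, and 2958, 2512 and 2077 CPM in cluster 21. In all other cells the list summed to 11223 CPM in HOM, 10335 CPM in HET and 8788 CPM in WT.

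Red blood cell genes behaved alike, with all 4 above 0 for HOM against WT, a median of 0.62 and summed levels of 2553 CPM in HOM, 1527 CPM in HET and 1696 CPM in WT layer I cells. In all other cells they summed to 1698 CPM in HOM, 910 CPM in HET and 1178 CPM in WT, the same order of libraries. Ptgds, which encodes an enzyme of prostaglandin synthesis made by meningeal and choroid plexus cells, was found in 28 of 237 HOM cells (266 CPM) and in 0 of 114 HET cells and 0 of 71 WT cells, which allow shares of cells with a value of up to 2.63% and 4.23% (3 counts of each number of cells). In all other cells it had 638 CPM in HOM, 5.56 CPM in HET and 6.11 CPM in WT. Igfbp2, a binding protein of insulin-like growth factors, had 185 CPM in HOM, 165 CPM in HET and 25.5 CPM in WT, from a sum of 2 in WT. The part of these transcripts in the other differences was not tested.

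Among all 1103 genes compared for HOM against WT, 647 lay above 0 and 6.8% were past the 2-fold change, which is the background for the lists that follow. Of 21 hypoxia and glycolysis genes, 10 could be compared for HOM against WT, and 9 lay above 0, with a median of 0.32 and none past the change. Ldhb (343 CPM in HOM, 191 CPM in WT; 0.84) and Pkm (524 and 319 CPM; 0.72) were highest and Pgk1 (-0.76) was lowest. For HOM against HET 9 of 10 lay above 0 (median 0.49; 653 of all 1268 genes) and Eno1, encoding enolase, was past it (1.04). The hypoxia and glycolysis list summed to 4903 CPM in HOM, 3732 CPM in HET and 4286 CPM in WT layer I cells. In all other cells it summed to 4752 CPM in HOM, 3761 CPM in HET and 3059 CPM in WT. The excess of HOM over WT was thus larger in all other cells than in layer I cells. The 16 newborn neuron genes compared had 11 above 0 and a median of 0.13, equal to that of all genes, with Igfbpl1 at 0.96 and Stmn1, a microtubule regulator, at 0.33. The 10 synapse and mature neuron genes had 5 above 0 and a median of -0.08. Of the 12 thymosin, tubulin and actin genes, 10 lay above 0 (median 0.19), with the actin-binding peptide genes Tmsb4x at 0.58 and Tmsb10 at 0.55.

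A few single genes of the lists are given here, and of these only Npy was past the 2-fold change for HOM against WT. Npy, encoding neuropeptide Y, had 297 CPM in HOM, 142 CPM in HET and 115 CPM in WT layer I cells (log2 ratio of HOM over WT 1.37). In cluster 21 alone its sums were 14 in HOM, 7 in HET and 5 in WT, too low for a comparison. The totals of all genes there were 86208, 46171 and 32732, and neither a difference nor a likeness of the libraries is read from such sums. Wnt7b, a Wnt ligand, had 281 CPM in HOM, 197 CPM in HET and 332 CPM in WT. Of the reelin pathway, Pafah1b1, encoding the dynein regulator LIS1, had 551 CPM in HOM, 732 CPM in HET and 740 CPM in WT, and Cdk5r1, an activator of the kinase CDK5, 212, 236 and 166 CPM. Of 15 reelin pathway genes 4 could be compared for HOM against WT, 1 above 0 and 3 below, with a median of -0.27 against 0.13 over all genes.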

How the data were processed

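Droplet libraries were read from the 5′ end. Per the submitters' processing notes, reads were aligned to mm10 with Cell Ranger 4.0.0 and analysed in Seurat 4.0. Cells were filtered, blood cells removed, clustered by Leiden and named by transfer from a reference atlas, per the authors. No doublets were called here, and the sources used do not give whether the authors did. The deposited matrix holds whole numbers that are a depth-corrected score and not raw counts: a cell's total ranged over 825 to 1952 against 499 to 17602 molecules, with the same number for both in only 617 of 36263 cells. The planned Poisson intervals for sums were therefore left out. In the cell table the authors gave the number of molecules as counts, the mitochondrial share as percent and the name probability as a fraction. Their own genotype comparisons (log2 fold changes and p-values over cells, also deposited) were left aside.

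Values were summed over the cells of a library and divided by the total of all 18879 genes. Comparison needed a summed value of 50 over the pair of libraries, and a gene was called past the fold at a log2 ratio of at least 1 in size. A gene at 0 in 1 library was given no ratio. Percentages were given exact Clopper-Pearson intervals and ratios of shares exact conditional binomial intervals, both at 95%. No test was made, since 1 library stands for each genotype and cells are not replicates. Named were the 5 markers, the 12 other Cajal-Retzius genes, Myt1l, the 15 leading genes, the 10 highest and lowest genes of each comparison (sum of at least 100, without sex-linked, haemoglobin, ribosomal and mitochondrial genes) and up to 4 members of each list. Genes of cluster 21 (sum of at least 30) and those in the last paragraph were chosen after the values were seen. The members, the 29 gene lists and the comparisons were chosen with earlier results of these data known. The ratio and interval steps were tested on simulated Poisson and binomial counts. These do not copy the depth-corrected values or the weight of single cells, so they do not vouch for the 2-fold calls. Python 3.11.15, numpy 2.4.6, pandas 2.3.3 and scipy 1.17.1 were used.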

Additional observations from a re-analysis of the deposited data

How the results depend on the processing

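No paired analysis was possible because the numbers in the labels are sequencing runs of 1 library per genotype, and for the same reason no replicate could be left out. Of 858 values of 76 single genes, 814 kept within the bounds of the reported value and 41 moved. The other 3 changed sign from a reported ratio past the 2-fold change. Tcf4 did so for HOM over WT, at 1.80 in cells of at least 1000 molecules and 0.72 in cluster 21. Rufy3 did so for HOM over HET, at 1.11 in cells with a Y-linked transcript. Sign changes of smaller ratios were not counted among these 3. For example, Reln and Ndnf were lower in HOM than in WT over all layer I cells but higher in cluster 21. Settings with cluster 21, with cells outside it and with at least 2 markers were chosen after the data were seen. Of 30 ratios of shares 27 held. The HOM over WT ratio was 1.89 for layer I cells with at least 2 markers, and in cells of at least 1000 molecules the HET over WT ratio was 1.95 and the HOM over HET ratio 1.30.

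The count of genes past the 2-fold change depended on the minimum sum and on the cells taken, with fewer genes compared in smaller sets. For HOM against WT it was 75 as reported, 498 at a minimum sum of 20, 7 at 200, 31 in cells of at least 1000 molecules, 38 at a name probability of at least 0.9, 38 in cells with Reln and 27 in cluster 21. For HET against WT it was 30 as reported, and 208, 2, 18, 19, 10 and 14 in the same order, with 11 outside cluster 21. For HOM against HET it was 36 as reported, and 355, 0, 8, 13, 18 and 11, with 18 in cells with a Y-linked transcript. That last setting was not run against WT, which had 5 such cells.

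The log2 ratios of the markers over other cells were 5.81 for Reln, 7.64 for Trp73, 7.22 for Lhx5, 7.28 for Ebf3 and 6.69 for Ndnf. In cells of at least 1000 molecules they were 7.01, 9.22, 8.91, 8.65 and 7.90, in cluster 21 7.15, 8.96, 8.52, 8.47 and 7.97, and outside cluster 21 3.15, 5.14, 4.86, 5.50 and 4.41. Cells with at least 2 markers were 69.2% at 1000 molecules or more, 88.1% in cluster 21 and 7.43% outside it. Precision was limited by depth and by the few cells of WT.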

Other observations

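Further gene lists were read as summed levels over all libraries, in cluster 21, in the layer I cells outside it and in all other cells. The 32 voltage-gated channel genes in the table summed to 1926 CPM in cluster 21 and 787 CPM outside, against 933 CPM in other cells. The 23 synapse and mature neuron genes summed to 5530 CPM and 3537 CPM, against 3535 CPM. In cluster 21 both lists therefore stood above the level of the other cells. The 15 cell cycle genes summed to 412 CPM in cluster 21 and 997 CPM outside, against 1393 CPM. The 11 intermediate progenitor genes in the table gave 170 and 217 CPM, against 506 CPM, and the 20 NOTCH pathway genes 394 and 340 CPM, against 792 CPM. These 3 lists were lower in both sets of layer I cells than in other cells, whereas the 17 newborn neuron genes gave 24553 and 26446 CPM, against 25940 CPM.

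The 40 axon guidance genes summed to 1762 CPM in cluster 21 and 943 CPM outside, against 2376 CPM in other cells. The 13 meningeal fibroblast genes gave 1811 and 527 CPM, against 621 CPM, and in cluster 21 most of this was Cxcl12, with 1550 CPM. The 12 SIN3, HDAC and REST corepressor genes, partners of MYT1L among them, gave 1326 and 963 CPM, against 1293 CPM. The 7 oligodendrocyte genes gave 109 and 77 CPM, against 442 CPM, and the 12 endothelial and mural genes 279 and 363 CPM, against 648 CPM.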
